A study of Mus musculus with 8 samples.

Results

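The Hedgehog pathway genes examined here were the ligand Shh, the receptor Ptch1, the ligand-binding antagonist Hhip, the co-receptors Boc and Gas1, the signal transducer Smo, and the transcription factors Gli1, Gli2 and Gli3. These 9 genes were chosen by name from the 20701 gene symbols of the count table, and each was represented by its transcript entry with the most reads. All 9 had enough reads to pass the filter on low counts. They were compared between pharyngeal mesoderm and hearts of 4 Isl1-/- mouse embryos and 4 wild-type embryos.

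All embryos were of strain C57BL/6 and were taken at E8.75, when they had 6 somites. Each library held the dissected tissue of 1 embryo. The knockout embryos came from an Isl1-null mouse line that dies early in development, and the labels name no treatment and no Cre driver for either genotype. Which embryos were littermates was not given in the sources used here. Knockout embryo 2 is labelled as total RNA, whereas the other 7 embryos are labelled as polyA RNA. Isl1 itself is a LIM-homeodomain transcription factor of cardiac progenitors, and the design addresses how its loss changes gene expression in this tissue.

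Sonic hedgehog is a secreted protein that is made in the notochord, the floor plate of the neural tube and the pharyngeal endoderm. Without ligand, the membrane receptor Patched1 keeps Smoothened inactive and Gli3 is cut to a repressor. When ligand binds Patched1, Smoothened enters the primary cilium and the Gli proteins act as activators. Gli1, Ptch1 and Hhip are themselves switched on by the signal and are widely used as its readout, whereas Boc, Gas1 and Cdon help cells to bind ligand and tend to be lower where the signal is strong. In the embryo, Hedgehog signalling from the pharyngeal endoderm to the adjoining mesoderm is needed for the second heart field, the source of the outflow tract.

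RefSeq gene-start windows of build GRCm38.p6, a later build than that of the counts, were found for 6 of the 9 genes. Shh, Gli1 and Boc had no window. The 250 bases before the start of Ptch1 and Hhip are shown because both genes are readouts of the Gli factors, and those of Gas1 because it had the largest fold change among the 9. All are printed 5′ to 3′ on the minus strand of the chromosome, which is the strand of the gene, and capitals mark the GC box GGGCGG or its reverse complement.
Ptch1 chr13:63565736-63565985: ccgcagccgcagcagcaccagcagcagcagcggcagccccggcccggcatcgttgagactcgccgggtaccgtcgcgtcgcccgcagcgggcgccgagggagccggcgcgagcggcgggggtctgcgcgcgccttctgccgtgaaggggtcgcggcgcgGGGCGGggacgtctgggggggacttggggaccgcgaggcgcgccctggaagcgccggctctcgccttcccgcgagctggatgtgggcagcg
Hhip chr8:80058009-80058258: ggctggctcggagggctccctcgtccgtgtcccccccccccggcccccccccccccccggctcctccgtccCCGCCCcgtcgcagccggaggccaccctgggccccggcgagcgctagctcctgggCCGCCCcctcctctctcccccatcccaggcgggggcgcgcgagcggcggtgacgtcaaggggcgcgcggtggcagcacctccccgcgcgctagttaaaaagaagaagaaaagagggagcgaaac
Gas1 chr13:60177536-60177785: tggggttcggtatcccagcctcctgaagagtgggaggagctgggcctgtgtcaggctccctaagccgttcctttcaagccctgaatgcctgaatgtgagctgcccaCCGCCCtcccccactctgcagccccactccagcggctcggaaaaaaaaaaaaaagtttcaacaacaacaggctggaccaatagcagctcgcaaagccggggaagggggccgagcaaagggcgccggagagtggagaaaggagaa
The Gli consensus GACCACCCA, searched on both strands of the full windows of 300 bases, was in none of the 6 genes' windows and in 83 of 32851 windows overall (0.253%). The GC box, which does not overlap that consensus, was in the windows of Ptch1, Hhip, Gas1, Gli2 and Gli3, but not of Smo, and in 35.7% of all windows. The Ptch1 stretch held 1 GC box, that of Hhip 2 and that of Gas1 1, and 78.4%, 76.0% and 58.8% of their bases were G or C. These matches describe the letters alone.

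Total counts per library lay between 18916452 and 26153039, with knockout embryos 3 and 4 the lowest. Levels per gene are given as CPM, reads scaled to library size by TMM, or as RPKM, reads scaled to both transcript length and library size. In CPM, Isl1 stood at 9.72, 9.76, 26.9 and 23.3 in wild-type embryos 1 to 4 and between 1.78 and 2.40 in the knockout, a log2 fold change of -3.00 ± 0.36 (SE; edgeR quasi-likelihood test with Benjamini-Hochberg adjustment, FDR = 0.0041). The tissue held strong heart muscle signal, with the cardiac actin gene Actc1 at 531 RPKM in wild type. Summed over 12 heart muscle markers, the level was 3083 to 4633 CPM in wild type and 1668 to 2516 CPM in the knockout, and 9 of the 12 were lower past the FDR of 0.05 (Myh6, Myh7, Tnnt2, Actc1, Myl3, Myl4, Myl7, Tnni1 and Nkx2-5). Of 11 markers of second heart field and splanchnic mesoderm, Isl1, Wnt2 and Mef2c were lower past the FDR, and Wnt2 was the most abundant at 11.3 RPKM in wild type. Genes listed as markers of tissues that make Shh were also read in the dissections. The summed level of 13 foregut and pharyngeal endoderm markers was 622.6 to 906.5 CPM in wild type and 599.4 to 923.5 CPM in the knockout, with the gut peptide gene Pyy the single marker past the FDR (log2 fold change -3.83) and Krt18 the most abundant (84.4 RPKM in wild type). Krt8 and Krt18 also mark surface ectoderm, and without them the sum was 323.5 to 463.1 CPM in wild type and 323.3 to 468.6 CPM in the knockout. Most of it came from Cldn6, Cdh1 and Epcam, which averaged 120.8, 111.2 and 66.1 CPM in wild type. Similar sums therefore do not show equal amounts of foregut endoderm. Hhex, a homeobox gene of the foregut, had a log2 fold change of -0.65 ± 0.16 (SE; unadjusted p = 0.00264, FDR = 0.093) with no overlap between genotypes, and Trh one of -0.55 ± 0.16 (unadjusted p = 0.00766, FDR = 0.142). With Pyy, they were the 3 of 13 markers (23.1%) with an unadjusted p under 0.05, beside 17.4% of all genes. The list as a whole was level, with 6 markers higher, 7 lower and a median log2 fold change of -0.001. Foxa1 stood at -0.05 ± 0.17, Foxa2 at 0.15 ± 0.23 and Sox17 at 0.01 ± 0.28 (SE). The sum over 7 notochord markers was 59.2 to 101.8 CPM and 74.6 to 102.0 CPM, with Sox9 the largest part (43.3 and 56.3 CPM on average). Of the other listed notochord markers, Noto was near 0 in both genotypes (0.196 and 0.17 CPM on average). T was read in every embryo, at 3.63 to 15.2 CPM in wild type and 7.19 to 10.8 CPM in the knockout. The sum over 10 neural tube markers was 420.5 to 487.6 CPM and 436.5 to 592.6 CPM. Of these, Sox2 averaged 116.6 and 118.1 CPM and Nkx2-2 1.537 and 1.575 CPM. The sums thus do not show that notochord or floor plate was present. The summed level of 7 visceral and yolk sac endoderm markers varied widely between embryos of a genotype, from 513.4 to 4479 CPM in wild type and from 406.8 to 6489 CPM in the knockout.

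None of the 9 genes passed an FDR of 0.05 in either direction, against 137 of 14075 genes tested (0.973%), of which 15 were higher and 122 lower in the knockout. DESeq2 and limma also called none of the 9. Boc and Gas1 were higher in the knockout at an unadjusted p under 0.05, which is 2 of 9 genes (22.2%) beside 17.4% of all genes. Boc stayed under that level in every alternative run, whereas Gas1 did not. Boc alone had CPM values that did not overlap between genotypes, 1 of 9 (11.1%) beside 10.3% of all genes. The fitted log2 fold changes of the 9 genes ranged from -0.24 for Hhip to 0.36 for Gas1, with 6 above 0 and 3 below. Their median was 0.047, and that of all genes tested was 0.006. The 95% interval of the fold change lay within 1.5-fold in both directions for 7 of the 9 genes and reached beyond it for Hhip and Gas1. In bulk tissue, fewer cells of a type and less RNA per cell cannot be told apart.

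**Figure D1:**
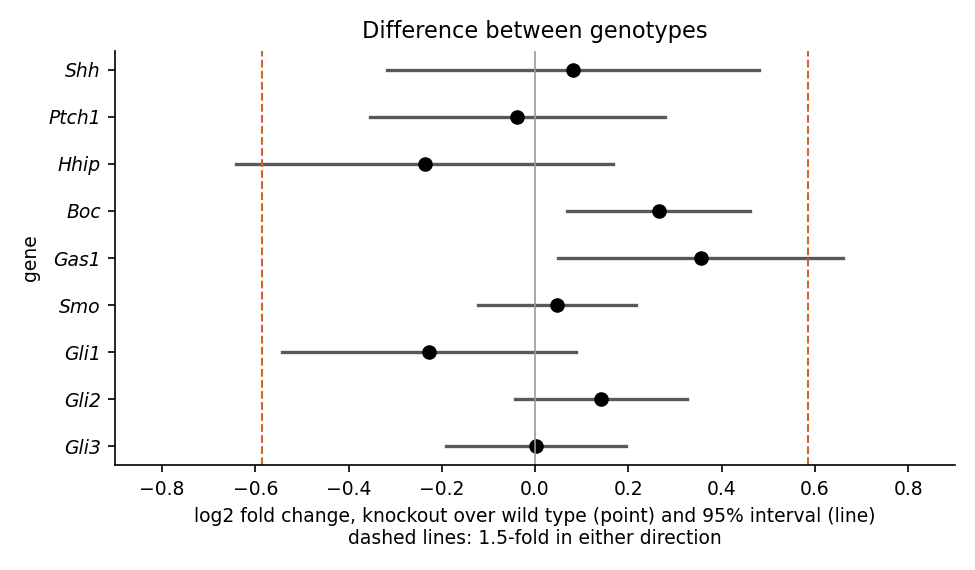
Points show the log2 fold change of each Hedgehog pathway gene, knockout over wild type, and lines its 95% interval, from edgeR on 4 embryos of each genotype. The intervals of Boc and Gas1 lie above 0, and those of Hhip and Gas1 cross the dashed lines that mark 1.5-fold.

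Per transcript length, the genes covered a wide range, and their order was led by the transducer and the receptor. In wild type, Smo was the highest at 31.2 ± 3.5 RPKM (SD, n = 4), followed by Ptch1 at 20.2 ± 5.2, Gli3 at 16.7 ± 1.5 and Gas1 at 13.3 ± 2.1 RPKM. Gli1 stood at 7.33 ± 1.64, Gli2 at 6.31 ± 0.60, Boc at 4.73 ± 0.52, Shh at 3.30 ± 0.95 and Hhip at 0.756 ± 0.097 RPKM. The ranges of neighbours in this order overlapped for Ptch1 and Gli3, Gli3 and Gas1, Gli1 and Gli2, and Boc and Shh. They did not overlap between Smo and Ptch1, Gas1 and Gli1, Gli2 and Boc, or Shh and Hhip. In the knockout the outer positions were held by the same genes, with Smo at 33.4 ± 2.1 RPKM, Ptch1 at 20.5 ± 0.7 RPKM and Hhip at 0.667 ± 0.160 RPKM. Gas1 (17.7 ± 3.0 RPKM) stood before Gli3 (17.4 ± 2.1 RPKM), and Gli2 (7.24 ± 0.65 RPKM) before Gli1 (6.51 ± 0.58 RPKM). Both pairs had overlapping ranges in both genotypes.

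**Figure D2:**
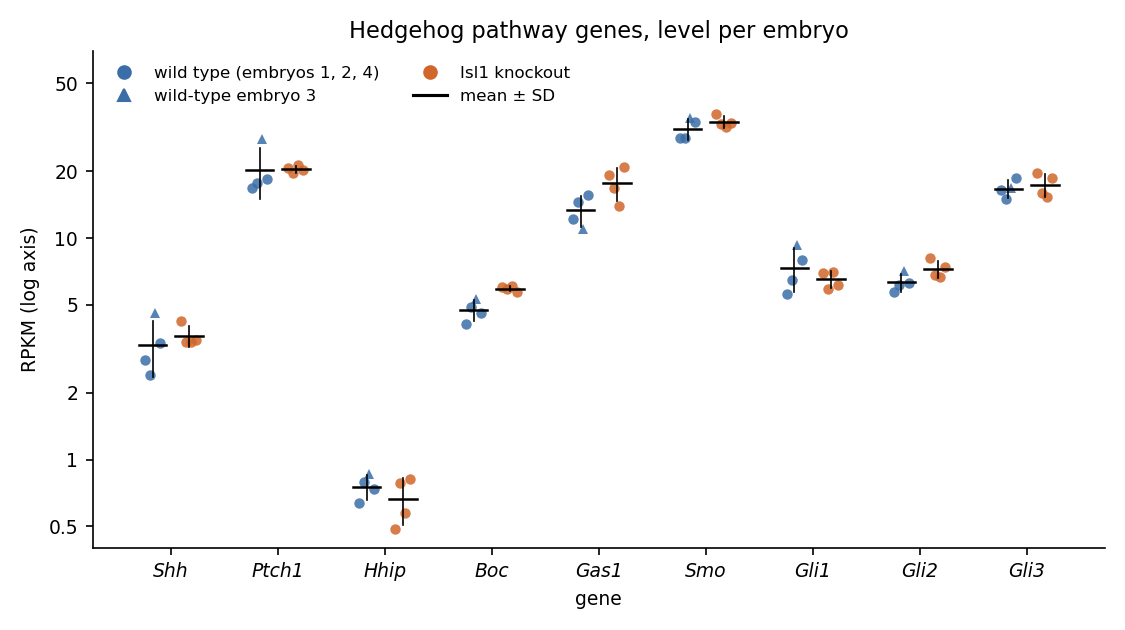
Each point is the RPKM of a Hedgehog pathway gene in 1 embryo on a log axis, blue for wild type and orange for Isl1 knockout, with bars for the mean and lines for the SD (n = 4 each); the triangle is wild-type embryo 3. Smo is the highest and Hhip the lowest gene in both genotypes, and the triangle is the highest wild-type point for 7 of the 9 genes.

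The ligand was at a similar level in both genotypes. Shh (NM_009170) lies on the minus strand of chromosome 5 at 28783355 to 28793641 in mm9, the build of all gene positions given here. Wild-type embryos 1 to 4 had 13.1, 11.3, 20.9 and 15.1 CPM, and knockout embryos 1 to 4 had 18.4, 15.3, 15.0 and 15.2 CPM. The highest of all 8 was wild-type embryo 3, and every knockout value fell inside the wild-type range. The means were 15.1 ± 4.2 and 16.0 ± 1.6 CPM (SD), on 255 to 496 reads per library. This gave a log2 fold change of 0.082 ± 0.179 (SE), with a 95% interval from -0.32 to 0.48 and an FDR of 0.845 in edgeR. In the annotation, exons of the opposite-strand genes 9530036O11Rik and Gm17493 covered 10.8% and 13.4% of the exon bases of Shh. Reads of both strands were counted, so their reads and those of Shh cannot be told apart in these stretches.

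The other Hedgehog ligands were scarce. Ihh, known from cartilage and visceral endoderm, was measured at 1.52 to 5.14 CPM in wild type and 0.89 to 6.30 CPM in the knockout, with a log2 fold change of 0.086 ± 0.545 (SE; edgeR FDR = 0.949). Dhh, the ligand of Schwann and Sertoli cells, averaged 0.300 CPM in wild type and 0.230 CPM in the knockout and did not pass the filter on low counts. Shh was therefore the ligand with the most reads, at 3.30 RPKM in wild type against 0.836 RPKM for Ihh and 0.0411 RPKM for Dhh.

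The receptor Ptch1 (NM_008957, chromosome 13, 63610261 to 63674474, minus strand), which is also a target of the pathway, averaged the same in both genotypes within the spread between embryos. The wild-type embryos had 213, 227, 349 and 225 CPM, and the knockout embryos 246, 239.6, 259 and 244 CPM, each in the order 1 to 4. Wild-type embryo 3 stood far above every other embryo, while the 4 knockout embryos lay close together, all above the 3 other wild-type embryos. The means were 253 ± 64 and 247 ± 8 CPM (SD), which corresponds to coefficients of variation of 25.3% and 3.32%. The fitted log2 fold change was -0.038 ± 0.142 (SE; 95% interval -0.36 to 0.28, edgeR FDR = 0.912). Without wild-type embryo 3 it was 0.16 ± 0.05 (unadjusted p = 0.0157, FDR = 0.118). The values of the genotypes then did not overlap, which follows from the values above and adds no support. Without that embryo the same held for 21.5% of all genes tested.

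Hhip (NM_020259, chromosome 8, 82490014 to 82581905, minus strand), which encodes a membrane protein that binds and sequesters ligand and is induced by the signal, was the least abundant of the 9 genes. Its level was 10.01, 12.6, 13.4 and 11.2 CPM in wild type and 7.23, 11.9, 8.68 and 12.2 CPM in the knockout. Knockout embryos 1 and 3 were below every wild-type embryo, and knockout embryos 2 and 4 were inside the wild-type range. With 166 to 318 reads per library, the log2 fold change was -0.24 ± 0.18 (SE) and the FDR 0.536 in edgeR. The interval of the fold ran from 0.641 to 1.12 and so reached beyond a 1.5-fold decrease.

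The co-receptors at the cell surface were higher on average in the knockout, without passing the FDR. Boc (NM_172506, chromosome 16, 44485158 to 44559010, minus strand), a membrane protein of the immunoglobulin superfamily that presents ligand to Patched1, had 31.6, 38.0, 40.2 and 33.9 CPM in wild type and 43.3, 43.6, 44.6 and 41.1 CPM in the knockout, in the order of embryos 1 to 4 in each genotype. Every knockout embryo was above every wild-type embryo. The means were 35.9 ± 3.9 and 43.1 ± 1.5 CPM (SD), a 1.2-fold difference with a 95% interval from 1.05 to 1.38. In edgeR the unadjusted p was 0.0131 and the FDR 0.175, so the difference did not pass over all genes. An exact permutation test, two-sided, returned p = 0.0286, below which 4 against 4 embryos cannot go. Over all alternatives the FDR of Boc ranged from 0.0642 in DESeq2 to 0.392.

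Gas1 (NM_008086, chromosome 13, 60275766 to 60278726, minus strand), a GPI-anchored co-receptor, had 66.6, 79.7, 58.8 and 81.6 CPM in wild type and 98.7, 88.3, 72.4 and 107 CPM in the knockout. Knockout embryos 1, 2 and 4 were above all wild-type embryos, and knockout embryo 3 was inside the wild-type range. The means were 71.7 ± 10.9 and 91.7 ± 15.0 CPM (SD). The fold was 1.28, with an interval from 1.03 to 1.58, an unadjusted p of 0.027 and an FDR of 0.227 in edgeR, and the exact permutation test gave p = 0.114. Reads of Y-linked genes were found in 1 wild-type embryo (embryo 4) and in 3 knockout embryos (1, 3 and 4), and with Y-linked expression as a covariate the log2 fold change of Gas1 was 0.27 ± 0.15 (SE; unadjusted p = 0.112). The unadjusted p was also above 0.05 without wild-type embryo 1 (0.0701) or 3 (0.0669) and without knockout embryo 1 (0.0663) or 4 (0.0851). Wild-type embryo 3, the highest for Shh, Ptch1 and Gli1, was the lowest for Gas1, at 0.774 times the mean of the other 3 wild-type embryos.

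Cdon, the paralogue of Boc and likewise a co-receptor, was not among the 9 genes but is given because it shares their role. It had 131, 145, 124 and 142 CPM in wild type and 176, 152, 144 and 184 CPM in the knockout. Knockout embryo 3 was just below wild-type embryo 2, and the other 3 knockout embryos were above every wild-type embryo. The log2 fold change was 0.27 ± 0.09 (SE; unadjusted p = 0.0111, edgeR FDR = 0.165; exact permutation p = 0.0571). Thus Boc, Gas1 and Cdon each had a knockout mean above the wild-type mean and none passed the FDR. The summed level of the 12 heart muscle markers given above was lower in every knockout embryo than in every wild-type embryo, and its part in the co-receptor values was not tested. Also listed with the receptors were the glypicans Gpc3, Gpc4 and Gpc6, which bind Hedgehog proteins at the cell surface, and the endocytic receptor Lrp2. Their log2 fold changes lay between -0.08 and 0.10, and Gpc3 was the most abundant of them at 173 RPKM in wild type.

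**Figure D3:**
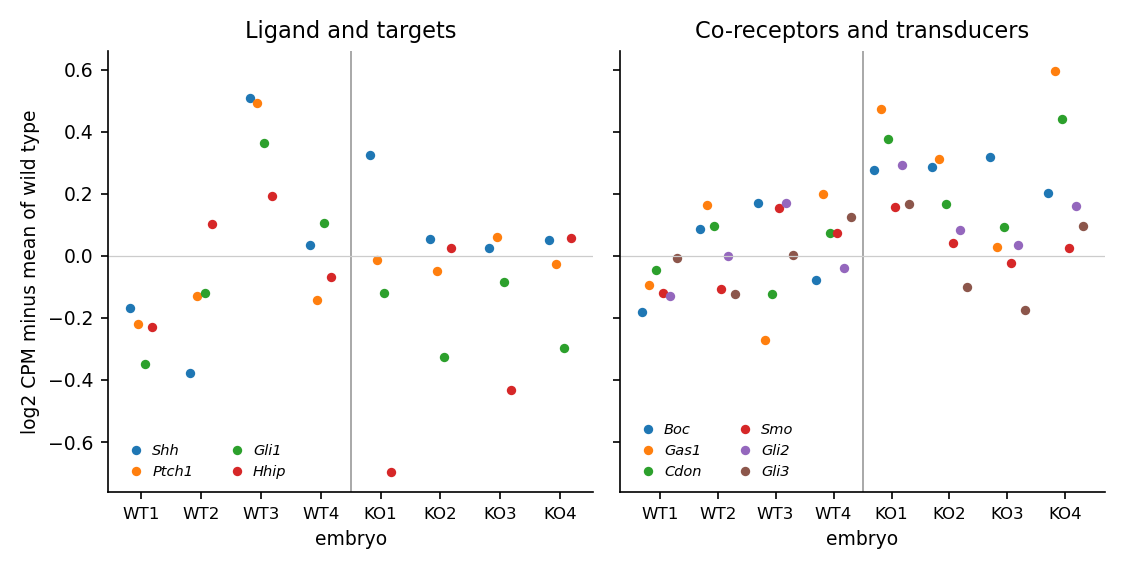
Points show log2 CPM of each gene in wild-type embryos 1 to 4 (WT1 to WT4) and knockout embryos 1 to 4 (KO1 to KO4), minus the mean over wild type; the order of embryos carries no meaning. In the left panel Shh, Ptch1 and Gli1 are highest in WT3, and in the right panel the 4 knockout values of Boc, Gas1 and Cdon are all above 0.

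Smo (NM_176996, chromosome 6, 29685694 to 29711365, plus strand), the seven-pass membrane protein that carries the signal inward, had 195, 196, 236 and 223 CPM in wild type and 236, 218, 208 and 215 CPM in the knockout. All knockout values but the highest, which equalled wild-type embryo 3 to within 1 CPM, fell inside the wild-type range. The log2 fold change of 0.047 ± 0.076 (SE) had the narrowest interval of the 9 genes, from -0.12 to 0.22 (edgeR FDR = 0.789). A 1.5-fold difference in either direction lay outside it.

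Among the transcription factors, Gli1 was lower and Gli2 higher on average in the knockout, and Gli3 was level. Gli1 (NM_010296, chromosome 10, 126766945 to 126778645, minus strand), an activator that is itself a target, had 35.5, 41.6, 58.1 and 48.7 CPM in wild type and 41.6, 36.0, 42.6 and 36.8 CPM in the knockout. All 4 knockout values were inside the wild-type range, whose highest value was again that of embryo 3. The log2 fold change was -0.23 ± 0.14 (SE; 95% interval -0.54 to 0.09, edgeR FDR = 0.438). It was -0.09 ± 0.12 without wild-type embryo 3 and -0.33 ± 0.13 without wild-type embryo 1 (unadjusted p = 0.0278, FDR = 0.36). The exons of Gli1 shared 55 bases (1.45%) with the opposite-strand gene Arhgap9, which was at most 1.26 CPM.

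Gli2 (NM_001081125, chromosome 1, 120730709 to 120950196, minus strand), the main activator, had 66.3, 72.4, 81.6 and 70.5 CPM in wild type and 88.8, 76.7, 74.2 and 81.1 CPM in the knockout. Only wild-type embryo 3 overlapped with the knockout values. The log2 fold change was 0.14 ± 0.08 (SE; 95% interval -0.04 to 0.33, edgeR FDR = 0.41), and without that embryo it was 0.20 ± 0.07 (unadjusted p = 0.0242, FDR = 0.147).

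Gli3 (NM_008130, chromosome 13, 15555068 to 15821859, plus strand), the main repressor, had 240.2, 222, 242 and 263 CPM in wild type and 271, 225, 214 and 258 CPM in the knockout. The genotypes overlapped throughout and their means were 242 ± 17 and 242 ± 27 CPM (SD). This gave a log2 fold change of 0.001 ± 0.087 (SE), with an interval from -0.19 to 0.19 and an FDR of 0.996 in edgeR. Of the 9 genes, Gli3 and Gas1 were the only ones for which wild-type embryo 3 was not the highest wild-type embryo.

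Ratios between genes in the same embryo do not depend on library scaling, and 5 were compared on the log2 RPKM scale. The ratio of the target Ptch1 to the transducer Smo was -0.65 ± 0.24 in wild type and -0.71 ± 0.11 in the knockout (SD; exact permutation test, p = 0.771, n = 4 each). That of the activator Gli1 to Gli3 was -1.21 ± 0.29 and -1.42 ± 0.21 (exact permutation test, p = 0.343). The ratio of Gli1 to Shh was 1.17 ± 0.20 in wild type and 0.85 ± 0.15 in the knockout. Wild-type embryos 1 to 4 had values of 0.99, 1.42, 1.02 and 1.24, and knockout embryos 1 to 4 had 0.72, 0.79, 1.06 and 0.82. Knockout embryo 3 overlapped with wild type and the other 3 were below it, and the exact permutation test gave p = 0.0857, or 0.429 adjusted over the 5 ratios. The ratios of Ptch1 to Shh and Hhip to Shh differed by -0.12 and -0.38, with adjusted p of 0.50 for both in the exact permutation test. All 5 ratios were lower on average in the knockout, 4 of them share Shh or Gli1, and none passed. Without wild-type embryo 3 the difference of the Ptch1 to Smo ratio was 0.05.

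The rest of the pathway was followed with 75 further genes by role, of which 72 had enough reads to be tested. None passed the FDR in edgeR or limma, and 10 (13.9%) had an unadjusted p under 0.05, 8 higher and 2 lower, beside 17.4% of all genes. DESeq2 called 2 of the 72 (2.78%), the cilium genes Ift140 and Tctn1, beside 5.24% of all genes. In all, 41 of the 72 were higher and 31 lower, with a median log2 fold change of 0.044. For 3 genes (4.17%) the genotypes did not overlap, beside 10.3% of all genes.

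Genes for processing and release of the ligand had log2 fold changes above 0 in 4 of 4 tested, with a median of 0.22. They were Hhat, which attaches palmitate to the ligand (0.049), and Scube1 (0.16), Scube2 (0.27) and Scube3 (0.31), secreted proteins that help its release, and none had an unadjusted p under 0.05. Scube1, the most abundant of them at 7.07 RPKM in wild type, was lowest in wild-type embryo 3, at 0.617 times the mean of the other wild-type embryos. Disp1, which exports the ligand, was listed at 0 in all 8 libraries. Whether that reflects its expression or the counting of its transcript entry was not tested, so it is not read as absence.

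The intracellular transducers had a median log2 fold change of -0.042 over 22 genes, with 8 higher and 14 lower. Iqce of the Evc complex (0.24 ± 0.11 SE, edgeR FDR = 0.282) was higher at an unadjusted p under 0.05. Prkar1a, the regulatory subunit of protein kinase A (-0.17 ± 0.07, FDR = 0.268), and the kinase gene Gsk3b (-0.17 ± 0.08, FDR = 0.276) were lower at that level. Both kinases phosphorylate Gli proteins. Sufu, which binds Gli proteins in the cytoplasm, had a log2 fold change of 0.075 ± 0.103 (FDR = 0.749). Csnk1a1, a casein kinase of the same step, was the most abundant at 99.8 RPKM in wild type and stood at -0.11 ± 0.06 (FDR = 0.394).

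Of 19 genes of the primary cilium, in which the signal is relayed, 14 were higher and 5 lower, with a median of 0.081. Ift140, a subunit of the retrograde transport complex, was at 55.3 ± 3.1 CPM in wild type and 67.6 ± 6.0 CPM in the knockout (SD, n = 4 each), and its values did not overlap. Its log2 fold change was 0.29 ± 0.08 (SE; unadjusted p = 0.00474, edgeR FDR = 0.118, DESeq2 adjusted p = 0.0336). Tctn1, a gene of the ciliary transition zone, went from 24.8 ± 0.9 to 29.7 ± 1.8 CPM, also without overlap (0.26 ± 0.08 SE; edgeR FDR = 0.134, DESeq2 adjusted p = 0.0499). Their call therefore depended on the tool. The intraflagellar transport gene Ift52 was the most abundant of the list at 16.0 RPKM in wild type, with a log2 fold change of 0.092.

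**Figure D4:**
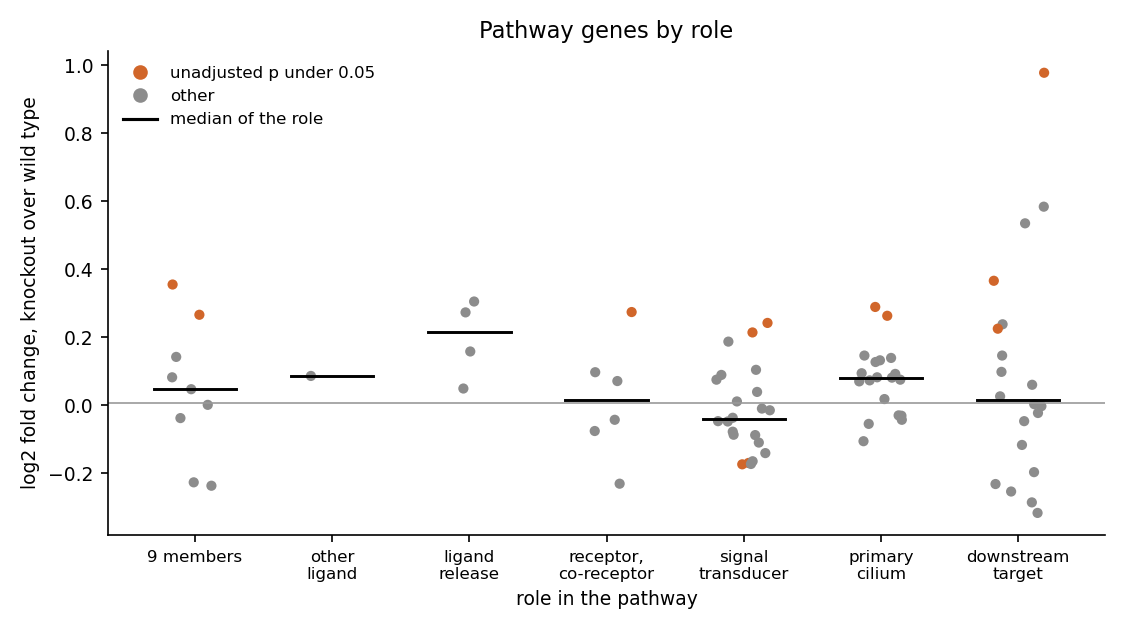
Each point is the log2 fold change of 1 gene, knockout over wild type, grouped by role in the pathway, with bars for the median of the role and a grey line for the median of all genes tested (0.006). Orange points have an unadjusted p under 0.05, and none of the genes shown passed the FDR of 0.05 in edgeR.

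Of 20 genes known as downstream targets in various embryonic tissues, 0 passed the FDR in edgeR and 3 (15.0%) had an unadjusted p under 0.05, beside 17.4% of all genes. Their median log2 fold change was 0.015, with 11 higher and 9 lower, and DESeq2 and limma called none. Tbx1, a T-box factor of pharyngeal endoderm and mesoderm, had the largest fold change. Its level in wild type was 9.01, 7.32, 25.5 and 9.43 CPM, and in the knockout 27.1, 24.6, 14.2 and 35.1 CPM. Wild-type embryo 3 lay among the knockout values, and the log2 fold change was 0.98 ± 0.40 (SE; unadjusted p = 0.035, FDR = 0.248). Mycn, a cell-cycle regulator, had 97.7, 116, 171 and 136 CPM in wild type and 184, 163, 154 and 170 CPM in the knockout, with a log2 fold change of 0.37 ± 0.15 (FDR = 0.243). The sulfatase gene Sulf1 was the other target with an unadjusted p under 0.05 (0.23 ± 0.10, FDR = 0.265). Without wild-type embryo 3, Tbx1 (1.56 ± 0.27, FDR = 0.0216), Mycn (0.53 ± 0.11, FDR = 0.0383) and the neural tube homeobox gene Nkx6-1 (0.95 ± 0.20, FDR = 0.038) were higher past the FDR, as 3.46% of all genes then were past it in either direction, whereas with that embryo Nkx6-1 stood at 0.58 ± 0.29 (FDR = 0.329). Among targets that did not pass, the forkhead gene Foxf1 was at -0.29 ± 0.25 and its paralogue Foxf2 at 0.06 ± 0.32, while Osr1 was at -0.05 ± 0.26, Bmp4 at -0.25 ± 0.19 and Nkx2-1 at -0.32 ± 0.46 (SE). Foxa2, which marks the notochord, floor plate and endoderm that make Shh, stood at 0.15 ± 0.23 (FDR = 0.78), and its 21.1 CPM in wild-type embryo 3 were above all 7 other embryos. The most abundant target by length was the cyclin gene Ccnd2, at 58.6 RPKM in wild type and 61.0 RPKM in the knockout.

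Wild-type embryo 3 set much of the spread described above. It was the highest wild-type embryo for 7 of the 9 genes and for 12 of 20 downstream targets, and among all 14075 genes it was the highest in 4952 and the lowest in 4775. Relative to the mean of the other 3 wild-type embryos it stood at 1.59 for Shh, 1.58 for Ptch1, 1.39 for Gli1 and 1.89 for Isl1. It also had the lowest level of the wild-type embryos in 11 of 12 heart muscle markers and 6 of 7 primitive erythroid markers. It had the highest in 7 of 7 visceral and yolk sac endoderm markers, 7 of 13 foregut endoderm markers and 4 of 6 notochord markers. The same held for 7 of 11 second heart field and splanchnic mesoderm markers and 6 of 10 floor plate and neural tube markers. Whether this makeup of the dissection has a part in the Shh, Ptch1 and Gli1 values was not tested. Without that embryo, 3 of the 9 genes (Ptch1, Gli2 and Boc, all higher) had an unadjusted p under 0.05, which is 33.3% beside 23.8% of all genes, and none passed the FDR. The number of all genes past the FDR was then 490.

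The genes most like Shh, Ptch1 and Gli1 over the 8 embryos were sought by the root mean square difference of log2 CPM, each gene centred on its own mean, as a description. For Shh, whose own spread on this scale was 0.254, the closest genes were Pdzd4 (0.0492), 4931428F04Rik (0.0753) and Fbxl18 (0.0766). Ptch1, with a spread of 0.205, was closest to Sall4 (0.0718), Cadm3 (0.0787) and Psap (0.0806), all of them highest in wild-type embryo 3. Gli1, with a spread of 0.226, was closest to Mocs1 (0.107), Cdh10 (0.111) and the retinol dehydrogenase gene Rdh10 (0.114). None of the 9 Hedgehog genes was among these closest genes of another.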

How the data were processed

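RNA of pharyngeal mesoderm and hearts was sequenced from 4 Isl1-/- and 4 wild-type embryos on NextSeq500, from 100 ng of total RNA per embryo. The authors aligned reads to mm9 with STAR (intron length 20 to 500000) and counted them over exons of RefSeq transcripts with HOMER, on both strands and without adjustment, so the deposited counts are raw read counts. How reads shared between near-identical genes were counted is not given in the sources used here, nor are tool versions. The deposited RPKM values were computed by the authors with edgeR, and values recomputed from the counts were within 0.000492 of them. Transcript length was deposited in bases. The columns of the authors' own comparison (baseMean, log2FoldChange, lfcSE, stat, pvalue and padj of DESeq2) were not used.

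Of 31507 transcript entries, that with the largest summed count was used for each of 20701 symbols. Ptch1 had a second entry (7275 against 7280 bases) with nearly the same reads. Counts were fitted in edgeR 4.0.16 (R 4.3.3) by quasi-likelihood with genotype as the only factor, after filterByExpr and TMM scaling, on all 8 embryos and 14075 genes. Tests were two-sided, Benjamini-Hochberg adjusted over all genes, and called at an FDR of 0.05. Intervals are 95%. Single values and the 5 ratios were compared by exact two-sided permutation tests, which with 4 against 4 cannot give a p under 0.0286. Replicates were separate embryos. Reads had no molecular identifiers, so counts of reads cover counting error only. The fit was tested on simulated data. Alternatives were RLE scaling, no filter, DESeq2 1.42.0, limma 3.58.1 on log2(RPKM + 1), replicate number as a block, Y-linked expression as covariate, other transcript choices and leaving out each embryo. Gene coordinates are those of GENCODE vM1 on NCBIM37, the assembly called mm9, and promoter windows those of RefSeq on GRCm38.p6. Tables and plots were made with Python 3.11.15, pandas 2.3.3, numpy 2.4.6, scipy 1.17.1 and matplotlib 3.10.9.

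The 9 genes and all lists were chosen with earlier results of these data known. By rule, the text names the 9 genes, Isl1, the genes past the FDR of each list by role (up to 8 per role by fold change) and of each marker list, the most abundant gene of a list by RPKM, and the 3 genes most like Shh, Ptch1 and Gli1. Other genes were named for their role or after their values were seen, and some listed genes are counted but not reported by name here.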

Additional observations from a re-analysis of the deposited data

Results flagged for a closer look

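Of 28 groups of 4 embryos examined, 2 held a value whose gap to its nearest neighbour took a share of the group's range above Dixon's 95% critical value, where chance flags about 1 group in 20. Ptch1 in wild-type embryo 3 was 349.2 CPM, and its gap took 0.899 of the wild-type range. Shh in knockout embryo 1 was 18.4 CPM, and its gap took 0.913 of the knockout range, a narrow one whose other 3 values lay between 14.95 and 15.25 CPM.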

How the results depend on the processing

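None of the 9 Hedgehog genes passed the FDR of 0.05 under any alternative run. The direction of Boc, Gas1, Gli1, Gli2, Hhip and Smo was kept throughout, while Ptch1 and Gli3, both near 0, and Shh changed sign. Ptch1 was 0.045 (log2) in limma and 0.008 with the Y-linked covariate, and Gli3 -0.003 with the replicate block and -0.078 with that covariate. Leaving out 1 embryo at a time gave -0.033 to 0.28 for Shh, -0.11 to 0.156 for Ptch1 and -0.058 to 0.056 for Gli3, with the high ends of Shh and Ptch1 without wild-type embryo 3, and -0.13 to 0.054 for the difference of the Ptch1 to Smo ratio. DESeq2 called 2 cilium genes higher, and 0 to 3 downstream targets were higher when 1 embryo was left out, 3 without wild-type embryo 3. Of all genes, 249 were higher and 477 lower in DESeq2, 25 higher in limma, and 4 higher with the covariate. Leaving out 1 embryo gave 3 to 106 higher and 67 to 384 lower. Same-numbered embryos had correlations of deviations of 0.0981, 0.224, 0.0941 and 0.489, not all above 0.1, so the numbers were not taken as pairs. The fit with the replicate block called 4 genes higher and 72 lower and none of the 9. The cause of these shifts was not tested. Of the 9 genes, Hhip and Shh had the fewest reads, with 166 to 318 and 255 to 496 per library. Ptch1, with 5106 to 8286 reads in wild type, had a coefficient of variation there of 25.3%, beside 27.7% for Shh and 12.7% for Hhip. How far depth limits the estimates was not tested.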
